A study of Caenorhabditis elegans with 2 samples.

Results

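Narrow HRDE-1-enriched loci were stretches of 1 to 4 kb of the Caenorhabditis elegans genome with much more small RNA in a pull-down of the Argonaute protein HRDE-1 (coIP) than in small RNA of the wild-type strain N2. They were chosen from a deposited table of coverage in 1 kb bins, after each library was scaled to parts of 1000000 of its column sum (ppm). A bin was a member when N2 was above the floor of 0.10 that the table gives to a bin without reads, the coIP was at or above 35 ppm and the ratio of coIP to N2 was at or above 4. Bins in a run of 5 or more adjacent bins with coIP at or above 10 ppm were left out as broad. The rule found 1899 member bins of 100257 bins, and adjacent member bins formed 1346 loci. As background, 16.1% of the 57212 bins with N2 above the floor, and 67.3% of those that also had at least 35 ppm in the coIP, were at or above 4-fold; the rule used this contrast, so nothing is read from these shares. The ratio and the coIP level of the members were set by the rule and are given as a description, with no test.

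Both libraries came from young adult hermaphrodites and each is a single library without a replicate. The coIP library holds the RNA bound to a FLAG and StrepII tagged HRDE-1 that was drawn from the lysate of pooled worms with an anti-FLAG resin, and its strain label names the coIP and no genotype. The other library is labelled as small RNA from N2, and the labels give it the same protocol text, so whether it is RNA of the whole lysate or of a mock pull-down from untagged worms is not stated. The cloning method also takes up RNAs without a 5′ monophosphate. Because whole worms were used, small RNA from fewer cells and less small RNA per cell cannot be told apart.

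HRDE-1 is an Argonaute of germline nuclei. Small interfering RNAs that RNA-dependent RNA polymerases copy from target transcripts guide it to nascent transcripts, where it acts in heritable silencing and in the placing of repressive histone methylation. Its known targets include retrotransposons and also germline genes.

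The column sums came from 4832736 read equivalents in the coIP and 2161930 in N2. There 1 read was worth 0.204 ppm of the coIP column sum and 0.453 ppm of the N2 column sum. The deposited scale gave inferred totals of 5919180 reads in the coIP and 4305520 in N2, so the bins held a smaller part of the total in N2. Scaling to the column sums (826479 in the coIP and 512156 in N2) thus gives lower ratios than the deposited values. Of all bins, 20.97% in the coIP and 42.9% in N2 were at the floor. The file carries no strand and its genome build is not given in the sources used here. The last bins of chromosomes I and V ended at 15060000 and 20920000, before the last genes annotated there in the reference assembly WBcel235, so positions below are those of the file, and genes, sequences and the hrde-1 locus were not analysed here.

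The members took a large part of the coIP from a small part of the genome. The 1899 member bins, 1.89% of all bins, held 40.1% of the coIP signal and 4.34% of the N2 signal after the floor was subtracted. The coIP and ratio minimums favour such shares. The 710 bins past the same minimums in long runs, 0.708% of all bins, held 19.7% of the coIP and 2.79% of N2. The 696 narrow bins with a ratio under 4, 0.694% of all bins, held 10.75% of the coIP and 49.97% of N2. In the coIP a member bin held 35.1 to 5269 ppm, with a median of 86.6 ppm. In N2 the same bins held 0.312 to 766 ppm, with a median of 8.71 ppm. The ratio ran from 4.00 to 258.5 with a median of 9.79, which is 3.29 on the log2 scale (3.23 to 3.35; 95% interval of the median, which treats bins as independent). When the bins among the 10 highest of either library were left out of the totals, every ratio was 1.60 times lower, and the median of the members was 6.12. In the authors' deposited table the p-value was 0 at the precision given in 1899 of 1899 member bins, and over the whole genome 12.6% of bins stood at 0.05 or lower with the coIP higher; those p-values compare the same libraries as the rule.

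**Figure D1:**
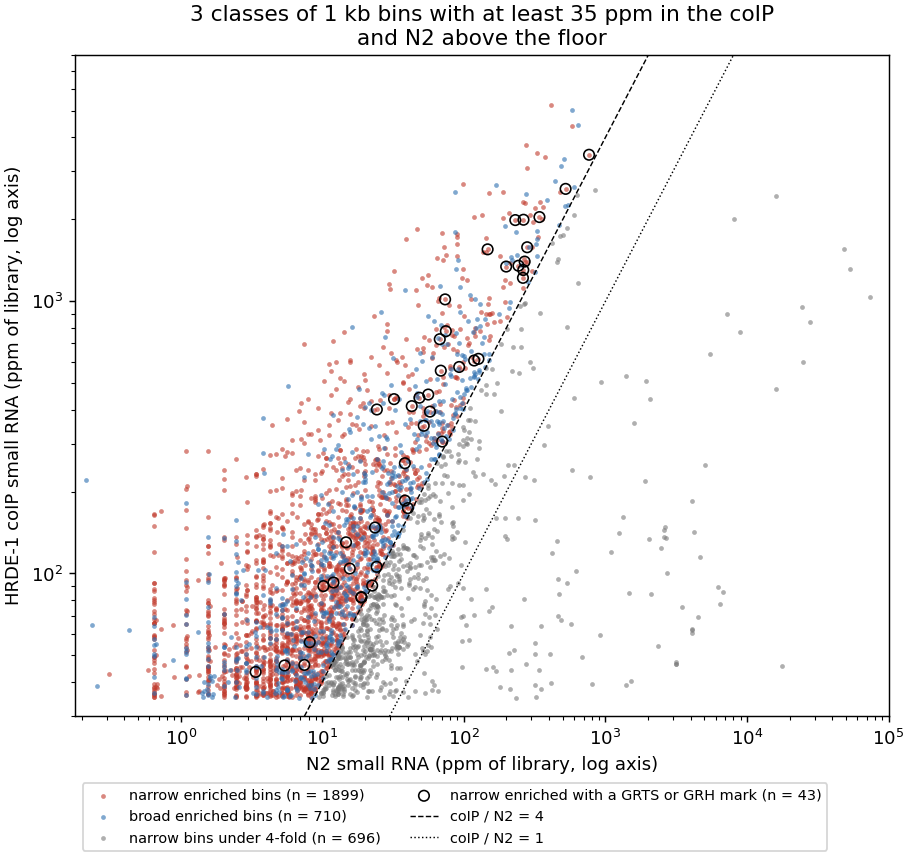
Signal of the coIP (vertical axis) against N2 (horizontal axis), both in ppm on log axes, 1 point per 1 kb bin of 3 classes with at least 35 ppm in the coIP and N2 above the floor; open circles mark the 43 member bins with a GRTS or GRH mark. The member bins fill the area above the 4-fold line up to a ratio of 258.5, and the circled bins lie close to that line, at ratios of 4.01 to 16.5.

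Signal among the loci was unequal. A set of 98 loci held 50% of the coIP signal of the members. By size, 914 loci were 1 bin, 326 were 2 bins, 91 were 3 bins and 15 were 4 bins, a limit that the rule sets. Median coIP signal was 70.9 ppm in loci of 1 bin, 243 ppm in 2 bins, 509 ppm in 3 bins and 877 ppm in 4 bins. Median ratio was 9.01 in 1 bin (8.60 to 9.47), 10.8 in 2 bins (9.35 to 12.4), 10.4 in 3 bins (8.03 to 13.3) and 13.8 in 4 bins (7.11 to 22.8). The intervals for 1, 2, 3 and 4 bins overlap, so no order of ratio by size is read from them.

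Depth in the coIP was ample and depth in N2 was the limit. Member bins held 171 to 25777 coIP reads with a median of 423, and 0.258 to 1689 N2 read equivalents with a median of 18.8. In 84 member bins N2 had under 3 reads, and their median ratio was 74.9. In the 192 bins with 100 N2 reads or more the median ratio was 6.70. Because the coIP minimum is fixed, a bin with few N2 reads has a high ratio by construction. Ratios of loci are given below with 95% exact intervals on read equivalents, which cover counting error only; since the rule asks for a ratio of 4, their distance from 4 is no support.

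Loci with the largest coIP signal were 2 to 4 kb wide and had steep edges. Values of whole loci, here and below, are sums over the member bins with the floor subtracted from every bin and from the column sum, in ppm of that smaller sum. Values of single bins are in ppm of the column sum with the floor, so the bins of a locus do not add up exactly to its value. Under the totals without the highest bins, 23 of the 27 loci named here and below stayed at or above 4-fold. The largest, X 13396001 to 13398000, held 8060 ppm in the coIP against 520 ppm in N2, a ratio of 15.5 (14.6 to 16.5). Its bins held 2694 and 5269 ppm in the coIP against 98.6 and 411.7 ppm in N2. The bins next to it held 0.133 and 3.69 ppm in the coIP, so nearly all of the signal lay within these 2 kb.

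The locus at X 3920001 to 3924000 filled 4 bins, which held 483, 1722, 608 and 1442 ppm in the coIP against 17.9, 89.99, 33.3 and 64.6 ppm in N2. Its ratio was 20.6 (18.8 to 22.7), the highest of the 10 loci with the largest coIP signal, and the flanking bins held 0.956 and 0.157 ppm in the coIP. The coIP signal had 2 high bins with a lower bin between them, and N2 had the same order.

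The locus at IV 6086001 to 6090000 had a similar pattern, with 1200, 245, 2509 and 1418 ppm in the coIP against 104.9, 16.1, 150.8 and 70.9 ppm in N2. Its ratio was 15.6 (14.5 to 16.8). At II 9289001 to 9292000, in the centre of the chromosome, the 3 bins were nearly level, with 1128, 1462 and 1630 ppm in the coIP against 59.1, 89.5 and 89.5 ppm in N2, and the ratio was 17.6 (16.2 to 19.3). In both loci the bin highest in the coIP was also highest, or level with the highest, in N2.

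The other 6 loci of the 10 held 4252 to 6794 ppm in the coIP against 331 to 882 ppm in N2. They were I 13852001 to 13854000 with a ratio of 7.85, X 16791001 to 16793000 with 12.4, V 15164001 to 15167000 with 10.3, II 13123001 to 13125000 with 5.31, X 3293001 to 3296000 with 13.0 and IV 9103001 to 9105000 with 7.06. The 4 loci on X had ratios of 12.4 to 20.6, and the 6 on autosomes had ratios of 5.31 to 17.6. Of the 10, 3 carried a mark, described below.

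Peaks were sharp in the coIP and less so in N2. Of the signal in the 5 bins centred on a member bin, the median share in that bin itself was 53.6% in the coIP (51.8 to 55.98) and 38.7% in N2 (37.4 to 40.4). In 1440 of 1899 member bins the coIP share was above the N2 share. For narrow bins under 4-fold, the 696 bins that met every other part of the rule, the same medians were 56.9% in the coIP and 57.4% in N2. For broad enriched bins, the 710 bins with the same coIP and ratio minimums that lie in long runs, they were 28.2% and 22.4%. The rule leaves out long runs in the coIP, so the gap between narrow and broad coIP shares is part of the choice of members, and the ratio minimum asks for a low N2 value in the member bin itself, which lowers its N2 share.

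Around the highest bin of each locus, the median coIP signal was 89.5 ppm in the bin, 8.10 ppm in the bins 1 kb to either side, 1.62 and 1.78 ppm at 3 kb and 0.738 ppm at 10 kb on both sides. The median N2 signal was 9.25 ppm in the bin, 2.01 ppm at 1 kb and 0.644 ppm at 5 kb. The median ratio was 9.34 in the bin, 3.93 and 3.62 at 1 kb, 1.67 at 3 kb and 1.32 and 1.23 at 10 kb. For comparison, the median ratio over all 100257 bins, floor bins included, was 0.883, and over bins with N2 above the floor 1.19. Around narrow bins under 4-fold it was 1.465 and 1.67 at 3 kb and 1.16 and 0.978 at 10 kb. Raised flanks near the bin were thus not particular to members. Around broad enriched bins the median ratio was 2.06 and 2.11 at 10 kb.

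**Figure D2:**
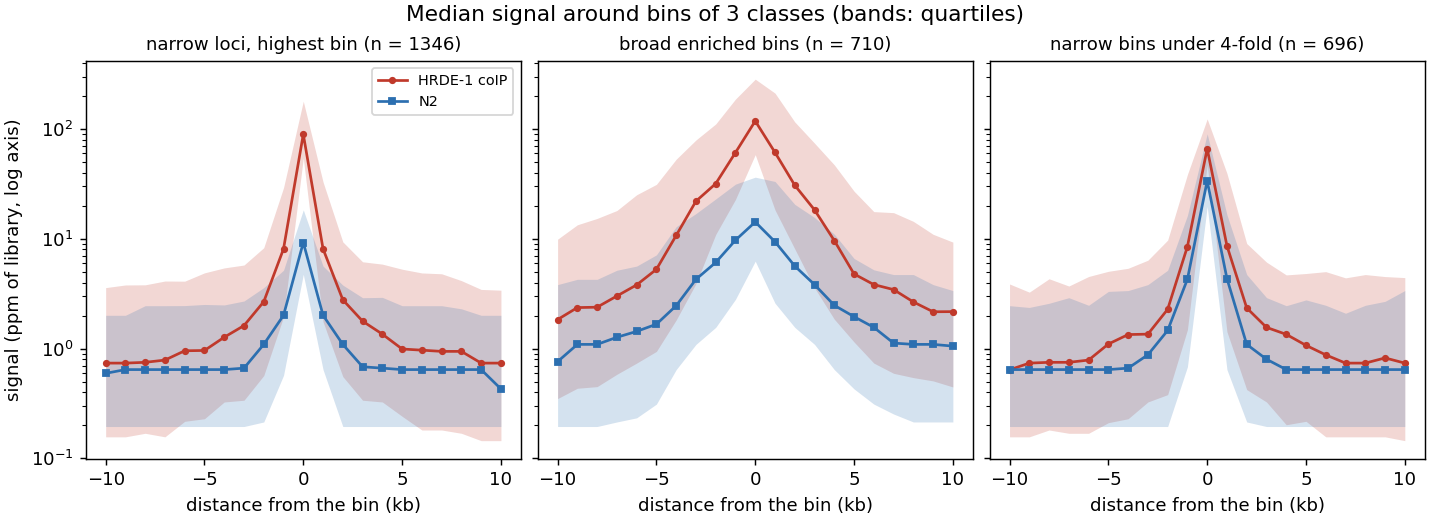
Median signal (lines) with quartiles (bands) in ppm on a log axis against distance in kb from the highest bin of 1346 narrow loci, from 710 broad enriched bins and from 696 narrow bins under 4-fold, coIP in red and N2 in blue. Around narrow loci the coIP median goes to 8.10 ppm at 1 kb from 89.5 ppm in the bin, and the N2 peak is lower and in the same place.

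Neighbouring bins were often unequal. In the coIP the higher neighbour had 26.9% of the signal of the top bin at the median, and the lower neighbour 2.06%. Of 1346 top bins, 360 had both neighbours under 10 ppm, 748 had 1 neighbour at 10 ppm or more, and 238 had both. The table cannot resolve edges below 1 kb. In 1224 loci the top bin was also the highest coIP bin of the 5 around it. It was the highest N2 bin as well in 886 of these loci, or 72.4% (69.8 to 74.9). The share was 89.4% (86.2 to 92.0) for narrow bins under 4-fold and 67.7% (61.7 to 73.2) for broad enriched bins. The interval of members overlapped that of broad bins and not that of narrow bins under 4-fold. The ratio minimum favours bins where N2 is low, so the gap to narrow bins under 4-fold is in part set by the rule.

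The 5 sharpest loci, by share of the coIP signal of the 11 bins centred on the peak, were single bins with 99.1% to 99.7% of it. They were X 15987001 to 15988000, X 12097001 to 12098000, X 16602001 to 16603000, X 1107001 to 1108000 and I 9085001 to 9086000. The first held 790 ppm in the coIP against 29.1 ppm in N2, a ratio of 27.1 (21.1 to 35.4), and the others had ratios of 9.81 to 11.3. At X 16602001 to 16603000 the coIP held 2142 ppm against 212 ppm in N2. That bin had 99.3% of the coIP signal of its 11 bins but 27.8% of the N2 signal, because the bin at X 16604001 to 16605000 held 13.2 ppm in the coIP against 538.7 ppm in N2. An enriched bin and a strongly depleted bin thus lay 2 kb apart. In the other 4 sharpest loci, N2 had 84.3% to 96.1% of its 11 bins in the same bin.

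Narrow loci were spread along the chromosomes, and broad bins lay mostly in the arms. Arms were taken as the outer 30% of bins at each end. Of the member bins, 65.4% (63.2 to 67.5; exact Clopper-Pearson interval, bins taken as independent) lay in arms, against 86.9% (84.2 to 89.3) of broad enriched bins, 61.6% (57.9 to 65.3) of narrow bins under 4-fold, 62.2% of bins with N2 above the floor and 60.0% of all bins. Adjacent bins are not independent, and with 1 bin per locus 63.6% of members lay in arms. Member bins were found at 20.6 per 1000 bins in arms and 16.4 per 1000 in centres. Broad bins were found at 10.3 per 1000 bins in arms and 2.32 per 1000 in centres. The intervals of the median ratio of members overlapped, with medians of 10.1 in arms (9.54 to 10.6) and 9.37 in centres (8.72 to 10.0).

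The gap between the arm shares of narrow and broad bins was present at each level of the coIP. Between 35 and 100 ppm, 62.9% of members and 85.4% of broad bins lay in arms. Between 100 and 400 ppm the shares were 68.4% and 86.6%, and above 400 ppm they were 69.3% (62.5 to 75.5) and 91.5% (84.97 to 95.9). Member bins lay in arms for 58.6% of those on III, 60.9% on IV, 65.7% on V, 65.8% on I, 68.5% on II and 73.2% (67.8 to 78.2) on X, and the share of broad bins was higher on each of the 6 chromosomes, from 81.2% on III to 94.2% on II.

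**Figure D3:**
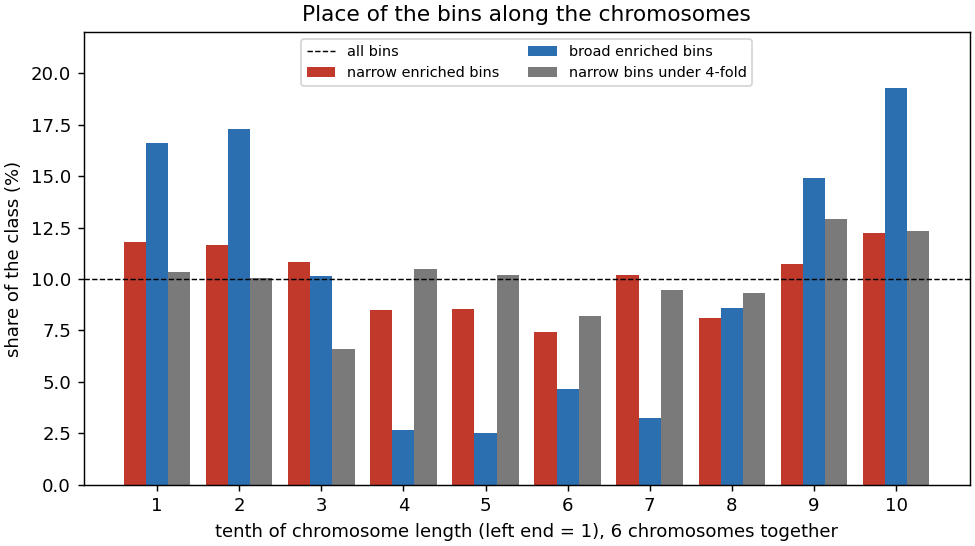
Share of each class (vertical axis, %) in each of 10 equal parts of chromosome length (horizontal axis), 6 chromosomes together; the dashed line is the share of all bins. Narrow enriched bins stay between 7.43% and 12.2% per part, while broad enriched bins reach 19.3% in part 10 and 2.54% in part 5.

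Each of the 97 full tiles of 1 Mb held member bins, from 4 to 39 with a median of 18, while 22 of these tiles held no broad bin. Broad bins are fewer and lie in runs by the rule, so the count of tiles without them is no measure of spread. The fullest tile was II 3000001 to 4000000 with 39 member bins, followed by III 1 to 1000000 with 38. The emptiest was X 10000001 to 11000000 with 4. The gap between neighbouring loci had a median of 44 kb, with quartiles of 14 and 102 kb and a largest gap of 697 kb, and 189 of 1340 gaps were 5 kb or less. Median distance from a member bin to the nearest broad coIP run was 113 kb, against 119 kb for bins with N2 above the floor and 131 kb for all bins. Within 5 kb of such a run lay 85 member bins (4.48%), against 7.19% of bins with N2 above the floor and 4.86% of all bins. So close to a run, the rule limits what can be a member.

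By chromosome, member bins were found at 24.0 per 1000 bins on III, 23.2 on II, 22.1 on I, 18.1 on IV, 16.6 on X and 12.8 on V. On IV, windows at 5 to 7 and 14 to 17 Mb, in regions known for piRNA genes, held 24 and 39 member bins. That was 12 and 13 per 1000 bins, against 20.3 per 1000 over the rest of IV. The median ratio was 11.4 and 7.52 in these windows and 8.99 in the rest. The window borders were not taken from an annotation, so the rest may also hold piRNA genes.

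Member bins on the X chromosome had higher ratios than those on autosomes. The 295 member bins on X had a median of 110.2 ppm in the coIP against 7.61 ppm in N2, and a median ratio of 16.03 (13.8 to 18.6). The 1604 on autosomes had a median of 83.9 ppm in the coIP against 8.81 ppm in N2, and a median ratio of 9.11 (8.73 to 9.54). Single autosomes had medians of 8.49 on I to 9.91 on II. The intervals of X and of each autosome do not overlap, but bins chosen for their ratio allow no test, so this is a description. Over all bins with N2 above the floor the order was the other way, with a median ratio of 0.845 on X and 1.24 on autosomes.

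The gap was present at each depth of N2. With under 10 N2 reads the median ratio of member bins was 32.4 on X and 21.7 on autosomes, with 10 to under 30 reads 11.9 and 8.30, and with 30 reads or more 10.8 (8.32 to 13.9) and 6.65 (6.32 to 6.94). Of all member bins 15.5% lay on X, against 13.9% of bins with N2 above the floor and 17.7% of all bins. By ratio, the share of member bins on X was 9.23% at ratios of 4 to under 8, 13.2% at 8 to under 16, 25.1% at 16 to under 32 and 28.0% (22.2 to 34.4) from 32 on. Broad bins on X also had a higher median ratio, 13.4 against 7.33 on autosomes.

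**Figure D4:**
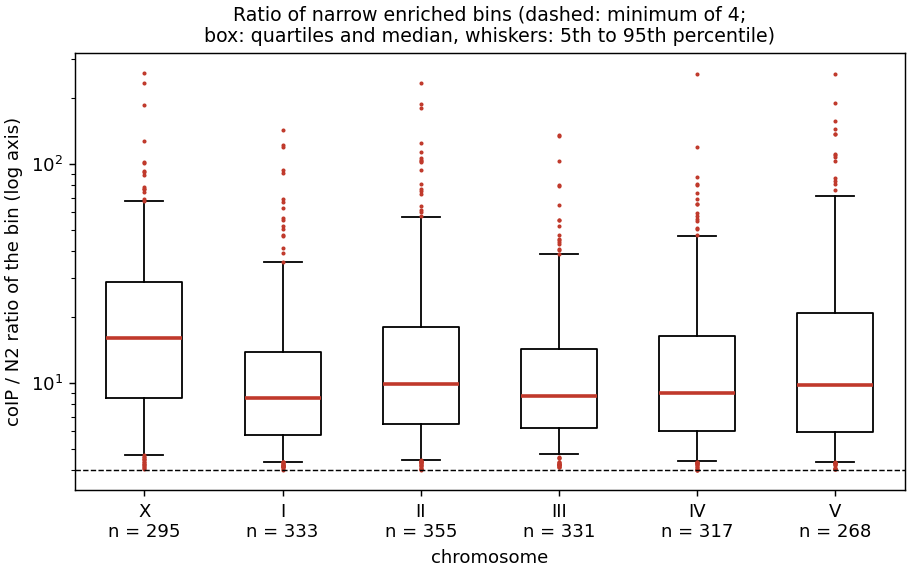
Ratio of coIP to N2 of the member bins (log axis) by chromosome, with boxes for quartiles, red lines for medians, whiskers from the 5th to the 95th percentile and points beyond them. The median on X is 16.03 and those of the 5 autosomes lie between 8.49 and 9.91.

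Few members carried the authors' marks. The table marks bins as GRTS or GRH, names used in published work for sites that germline nuclear RNAi silences at transcription and sites where it places heterochromatin; the table does not say how they were set, and related small RNA data may have been used. Of the 1899 member bins, 43 carried a mark, or 2.26% (1.64 to 3.04), against 7.75% (5.89 to 9.96) of broad enriched bins, 6.61% (4.88 to 8.72) of narrow bins under 4-fold and 0.650% of bins with N2 above the floor. There were 11 with GRTS, or 0.579% (0.29 to 1.03), against 0.327% of bins with N2 above the floor, which lies inside that interval. There were 35 with GRH, or 1.84% (1.29 to 2.55), against 0.367%. Both marks stood on 3 member bins. Of all marked bins the members held 5.76% of the 191 with GRTS (2.91 to 10.1) and 16.3% of the 215 with GRH (11.6 to 21.9). Among bins without a mark, 1.86% were members. A mark lay within 5 bins of 98 of 1899 member bins (5.16%), 142 of 710 broad bins and 91 of 696 narrow bins under 4-fold, against 2.65% of bins with N2 above the floor and 1.73% of all bins.

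Marks went with high signal in both libraries and with low ratio. Marked members had a median of 437 ppm in the coIP against 56.0 ppm in N2 and a median ratio of 6.67. Unmarked members had a median of 84.97 ppm in the coIP against 8.36 ppm in N2 and a median ratio of 9.96. By N2 depth, 24 of 192 members with 100 reads or more were marked, against 5 of 789 with 10 to under 30. All members with 100 reads or more had a median ratio of 6.70, near that of marked members. The low ratio of marked members is thus not separated from their N2 depth. The share with a mark was 0.831% of members at 35 to under 100 ppm, 1.64% (0.788 to 2.99) at 100 to under 400 ppm and 11.7% (7.65 to 16.9) from 400 ppm on. In broad bins it was 1.30%, 9.51% (6.36 to 13.5) and 20.3% (13.5 to 28.7) at the same levels. The intervals of members and broad bins were apart between 100 and 400 ppm and overlapped at the other levels. In narrow bins under 4-fold the share was 3.59% (2.11 to 5.69), 10.9% (6.70 to 16.5) and 20.4% (10.2 to 34.3). Below 400 ppm these intervals lay above those of members (0.381 to 1.57 at 35 to under 100 ppm), and from 400 ppm on they overlapped. All these intervals take bins as independent, which the adjacent bins of a broad run are not.

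At ratios of 4 to under 8, 28 of 737 member bins were marked, at 8 to under 16, 14 of 598, at 16 to under 32, 1 of 339, and from 32 on, 0 of 225. The highest ratio of a marked member was 16.5. The 225 members from 32 on had a median of 4.00 N2 reads, and 1 of the 410 members with 3 to under 10 N2 reads was marked. By chromosome, 14 marked members lay on IV, 10 on II, 7 on V and 6 each on I and III. None of the 295 member bins on X carried a mark, which allows a share of up to 1.02% (3 bins of 295), but only 3 of the 381 marked bins lie on X at all.

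Of the 38 loci with a mark, 23 were marked on every bin, and 19 of those 23 were single bins. The other 15 also held a bin without a mark. The marked locus with the largest coIP signal, V 15164001 to 15167000, held 454, 3508 and 689 ppm in the coIP against 56.0, 331 and 63.5 ppm in N2, and the GRTS mark stood on its first bin, the lowest of the 3. At II 13123001 to 13125000 both bins carried GRH, and the locus held 4683 ppm in the coIP against 882 ppm in N2. At IV 9103001 to 9105000, with 4252 ppm in the coIP against 602 ppm in N2, 1 of 2 bins carried GRH.

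The locus IV 6354001 to 6355000 was a single GRH bin with 3496 ppm in the coIP against 781 ppm in N2, a ratio of 4.48 (4.26 to 4.71). The GRH mark also stood on the bin before it, with 2.25 ppm in the coIP against 1.09 ppm in N2, so a mark was present where hardly any small RNA was found. At III 9240001 to 9242000 the bins held 1016 and 790 ppm in the coIP against 73.7 and 93.2 ppm in N2, the first with GRH. The bin after them held 973 ppm in the coIP against 265 ppm in N2 and missed the rule at a ratio of 3.67, so the locus as defined ends inside a continuous signal. The other 5 of the 10 marked loci with the largest coIP signal had ratios of 5.87 to 7.51.

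From 10 N2 reads on, member bins held whole reads more often than broad bins did. Fractions of a read in a bin can arise where the authors shared a read between several sites, which was not tested. A value within 0.0055 of a multiple of 1 read was called whole. With 10 to under 30 N2 reads, 63.9% (60.4 to 67.2) of member bins were whole, against 42.5% (36.0 to 49.2) of broad bins, 36.6% (25.5 to 48.9) of narrow bins under 4-fold and 66.9% (65.8 to 68.0) of all bins of that depth. With 30 to under 100 reads the shares were 60.6% (55.8 to 65.3), 37.6%, 34.1% and 51.7%. With 100 reads or more they were 49.0% (41.7 to 56.3), 30.5% (23.2 to 38.5), 25.9% (20.9 to 31.4) and 33.6%. With 1 to under 10 reads they were 71.1% (66.9 to 75.1) for members, 62.4% (52.96 to 71.2) for broad bins and 71.1% for all bins. In each of the 3 classes of depth from 10 reads on, the intervals of members lie above those of broad bins and of narrow bins under 4-fold. These intervals take bins as independent. Broad bins lie in runs of adjacent bins, so their intervals are too narrow and the gap is a description.

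**Figure D5:**
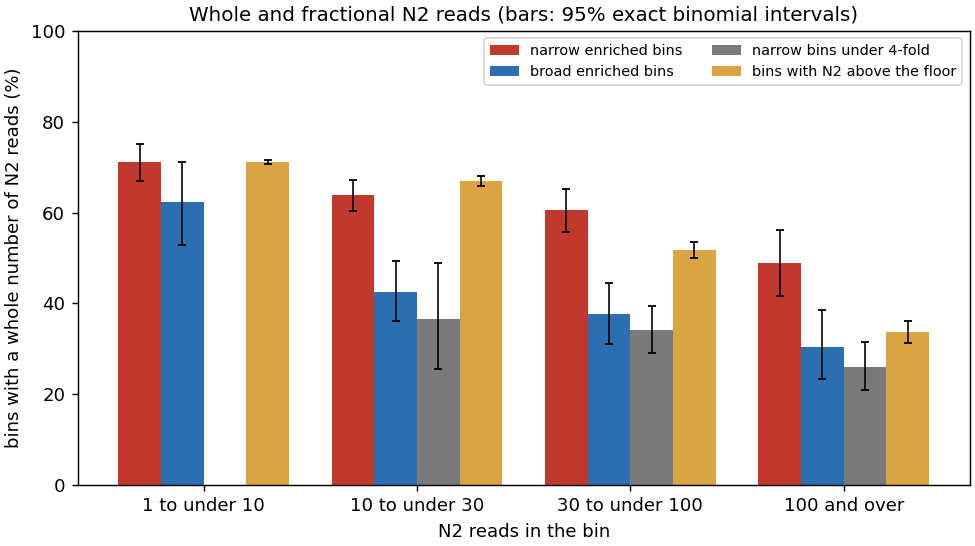
Share of bins with a whole number of N2 reads (vertical axis, %) by N2 depth of the bin, with 95% exact binomial intervals, for 4 classes of bins. From 10 reads on, narrow enriched bins are at 63.9%, 60.6% and 49.0%, and broad bins at 42.5%, 37.6% and 30.5%.

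A few members had near twins. There were 3 pairs of member bins on the same chromosome within 100 kb whose values were within 0.5% of each other in both libraries. At V 14044001 to 14045000 and V 14049001 to 14050000, 5 kb apart and both with GRTS, the coIP held 81.7 and 81.8 ppm against 18.9 ppm in N2 in each, and the N2 reads held a fraction (41.2 reads). The bins IV 3138001 to 3139000 and IV 3173001 to 3174000 held 233.7 and 233.9 ppm in the coIP against 45.1 ppm in N2 in each. Their N2 reads were whole. In the third pair, V 20071001 to 20072000 and V 20156001 to 20157000, the coIP held 67.3 and 67.5 ppm against 7.46 ppm in N2 in each. The search for such pairs was made after the values were seen.

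The loci with the largest ratio among those with at least 10 N2 reads were of moderate signal and unmarked. At II 3276001 to 3278000 the bins held 696 and 113 ppm in the coIP against 7.46 and 1.09 ppm in N2, and the ratio of the locus was 98.3 (62.1 to 166). The bin after it held 0.121 ppm in the coIP, which is the floor, against 2.46 ppm in N2. The next were IV 11001001 to 11004000 with 89.0 (51.3 to 174), I 9650001 to 9653000 with 86.7 (48.3 to 173.6), III 11461001 to 11463000 with 68.2 (38.9 to 132) and V 20812001 to 20814000 with 65.6 (36.5 to 131.5). These 4 loci held 333 to 498 ppm in the coIP against 5.08 to 5.60 ppm in N2. The intervals of all 5 overlap, so their order is not resolved at this N2 depth, and 3 of the 5 loci lay in arms.

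The borders of the rule cut through a continuum. The 3 members nearest the coIP minimum all held 35.08 ppm, and the 3 bins just outside held 34.92, 34.90 and 34.88 ppm at ratios of 7.35 to 13.2. The 3 members nearest the ratio minimum had ratios of 4.002, 4.005 and 4.012, and the 3 bins just outside had 3.999, 3.990 and 3.984. Another 14 narrow bins at or above 35 ppm, with 36.5 to 139 ppm in the coIP, had N2 at the floor and were left out by the rule.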

How the data were processed

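The deposited values are small RNA signal (coverage) in 1 kb bins, 1 column for each library, with a floor of 0.1. Bowtie 0.12.7 is named in the submitters' processing notes; for the build, the read filters and reads with several sites, the method is not given in the sources used here. The authors' p-value per bin is deposited with no stated method. The value of 1 read was inferred from the steps between low values, and bins hold read equivalents, not counts, so no count test was run. Each group is 1 library, so no replicate error and no test of a difference exist. Shares have exact binomial intervals and medians have order-statistic intervals at 95%. Both kinds take bins or loci as independent. The selection was run on simulated data with planted loci well above the coIP and ratio minimums, which says nothing about bins near those minimums. Loci were named by size of coIP signal (10), ratio (5), sharpness (5) and marks (10). Members and lists were chosen with earlier results of these data known. Alternatives were scaling, thresholds, run limits, floor, arm width and window. Python 3.11.15, numpy 2.4.6, pandas 2.3.3, SciPy 1.17.1 and matplotlib 3.10.9 were used.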

Additional observations from a re-analysis of the deposited data

How the results depend on the processing

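The count of member bins (1899) was 1464 with scaling by the median of ratios, 1445 with totals without the 10 highest bins, and 1035 when runs of 3 or more bins were left out; the other 9 settings gave 1484 to 2385. Under these 12 settings the arm share of members ran from 65.3% to 68.7% and that of broad bins from 75.1% to 93.3%; with 1 bin per locus 63.6% of members lay in arms, and with arms as the outer 20%, 46.4%. The share on X was 17.4% with totals without the 10 highest bins and 13.8% with 1 bin per locus. The marked share was 1.59% with totals without the 10 highest bins, 3.79% with a mark within 1 bin and 5.16% within 5 bins. Over the 12 settings it was lowest, at 1.06%, with runs of 3 or more bins left out. It was highest, at 2.99%, with runs of 8 or more left out. Of member bins, 48.1% stood alone, 51.8% with the median of ratios, 52.2% with totals without the 10 highest bins and 67.9% of loci. The peak share (53.6%) was 56.6% at 50 ppm, 65.7% with 1 bin per locus, and 63.9% and 41.5% with windows of 3 and 11 bins. The median log2 ratio was 2.83 with the median of ratios, which shifts the ratio of each bin by 0.46. At the median, the ratios of the 27 named loci were 0.730 times as large with that scaling and 0.629 times with totals without the 10 highest bins. Of the 27, 25 and 23 were still at 4-fold. Both alternatives also kept the floor, so loci with few N2 reads moved further. The ratio of I 9650001 to 9653000 went from 86.7 to 56.8 and 48.9. Keeping the floor alone, which was added after seeing the data, moved none of the 27 beyond its interval. Windows, arm width and 1 bin per locus act by construction; for the other changes the cause was not tested. No paired analysis was possible because there is a single library of each kind, and for that reason no replicate could be left out. Ratios of bins under 3 N2 reads rest on too little depth to be ordered.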
